A study of Bos taurus with 6 samples.

Results

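Myostatin (MSTN, also listed as GDF8) and transforming growth factor beta 1 (TGFB1) are secreted proteins that restrain the growth or the differentiation of muscle cells, and their transcripts were followed here in bovine muscle progenitors. The pair was chosen by identifier, ENSBTAG00000011808 for MSTN and ENSBTAG00000020457 for TGFB1, and makes up 2 of the 27607 genes in the count table. RNA sequencing compared fibro-adipogenic progenitors (FAPs, the interstitial cells that give rise to intramuscular fat) with satellite cells (SCs, the stem cells of muscle fibres), with 3 libraries per group that the labels call A, B and C. Both cell types came from the semitendinosus muscle of Belgian Blue cattle and carried no treatment or engineered allele. They had been sorted by FACS as CD31-/CD45- cells, with FAPs CD29+/CD56- and SCs CD29+/CD56+. They were then grown for 72 h on collagen in growth medium with 20% serum and 5 ng/ml bFGF, after seeding at 2000 cells per cm2. The study used animals of both sexes and of a range of ages, and which of them gave these libraries is not stated in the sources used here, nor is it said whether the letters stand for animals or for cultures, so that p-values measure only the spread between these samples, which may be technical.

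MSTN is made mainly by skeletal muscle. Its precursor is cut by furin-type proteases, a latent complex with the propeptide is opened by BMP1/tolloid proteases, and the freed dimer binds the activin type II receptors, which switch on SMAD2 and SMAD3 and hold back muscle mass. Follistatin binds the mature ligand and blocks it. TGFB1 is likewise secreted in a latent complex, which integrins and proteases open. It signals through TGFBR2 and TGFBR1 to the same SMAD proteins, inhibits the differentiation of myoblasts and drives fibroblast-like cells to make extracellular matrix. Belgian Blue cattle are known for double muscling, which goes back to an inherited deletion in the coding sequence of MSTN that is widespread in the breed. The genotype of the animals used is not given, and reads counted per gene do not tell a transcript with the deletion from one without it, so the values below are transcript levels only.

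MSTN reads were found in SCs and not in FAPs. The count was 12 in SCs A, 8 in SCs B and 17 in SCs C, and 0 in FAPs A, FAPs B and FAPs C. Every SC library therefore lay above every FAP library, as was the case for 38% of tested genes on TMM-adjusted library sizes and for 67.2% on library totals, and even the SC counts were small. Library totals ran from 19666738 counts in SCs B to 37791193 in FAPs A, and the smallest FAP library held 22737901. A level of 3 counts per library was taken as the smallest that could be shown. Reads of the gene scaled to a common library size (CPM) were computed on library sizes adjusted with TMM factors, which correct for a few highly counted genes taking up reads, and also on plain library totals.

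On the TMM-adjusted scale, the MSTN level was 0.356 CPM in SCs A, 0.337 CPM in SCs B and 0.468 CPM in SCs C, with a mean of 0.387 ± 0.0707 CPM (SD, n = 3). On library totals the SC mean was 0.466 ± 0.0861 CPM (SD, n = 3). The SC libraries were not shown to differ in MSTN beyond counting error (exact multinomial test, p = 0.729 on TMM-adjusted sizes). The test rested on 37 reads, so smaller differences between the SC libraries could be missed. Their coefficient of variation was 18.3%, where counts of this size give 28.5% from counting error alone. In SCs B, the 95% exact Poisson interval of the level ran from 0.145 to 0.663 CPM. Such intervals cover counting error only, since reads without molecular identifiers are not independent molecules.

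The 0 counts in FAPs A, FAPs B and FAPs C allowed a level of at most 0.0971, 0.106 and 0.157 CPM, respectively, when 3 counts are set as the floor on the TMM-adjusted scale. Each of these ceilings was below the lowest SC level, when that level is taken without its counting error. The mean SC level was 3.22 times the mean of these floors, 0.120 CPM. On library totals, where the floors average 0.0998 CPM, it was 4.66 times that mean. These ratios leave out counting error and are not lower bounds on the fall. The 95% exact Poisson interval of FAPs C reached 0.193 CPM on the TMM-adjusted scale, above the start of that of SCs B, 0.145 CPM. Those of FAPs A and FAPs B ended at 0.119 and 0.13 CPM, below each SC interval. On library totals FAPs C reached 0.162 CPM and SCs B started at 0.176 CPM.

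**Figure D1:**
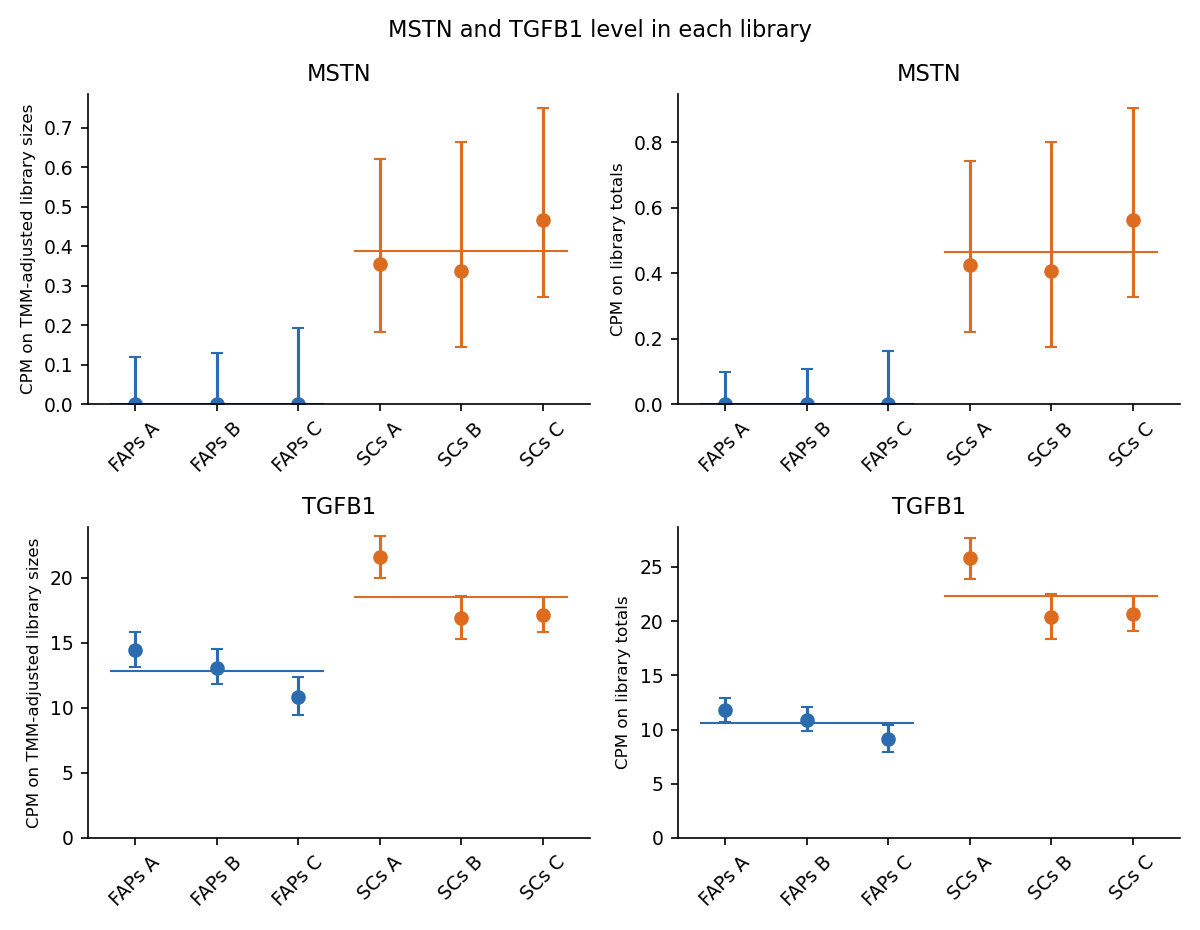
MSTN (top) and TGFB1 (bottom) in each library, in CPM on TMM-adjusted library sizes (left) and on library totals (right), for FAPs (blue) and SCs (orange). Points are libraries, bars are 95% exact Poisson intervals of the count and horizontal lines are means of 3 libraries. MSTN sits at 0 in each FAP library, and the lowest TGFB1 level in SCs, 16.9 CPM with TMM factors, lies close above the highest in FAPs, 14.4 CPM.

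The depth of the FAP libraries was enough to meet MSTN reads if the SC level had held there. At the mean SC level on TMM-adjusted sizes, 11.9 reads would be expected in FAPs A, 11 in FAPs B and 7.38 in FAPs C. On library totals the expected numbers were 17.6, 15.8 and 10.6. All FAP libraries had 0. This compares the libraries at their depth and does not show that FAPs lack the transcript.

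**Figure D2:**
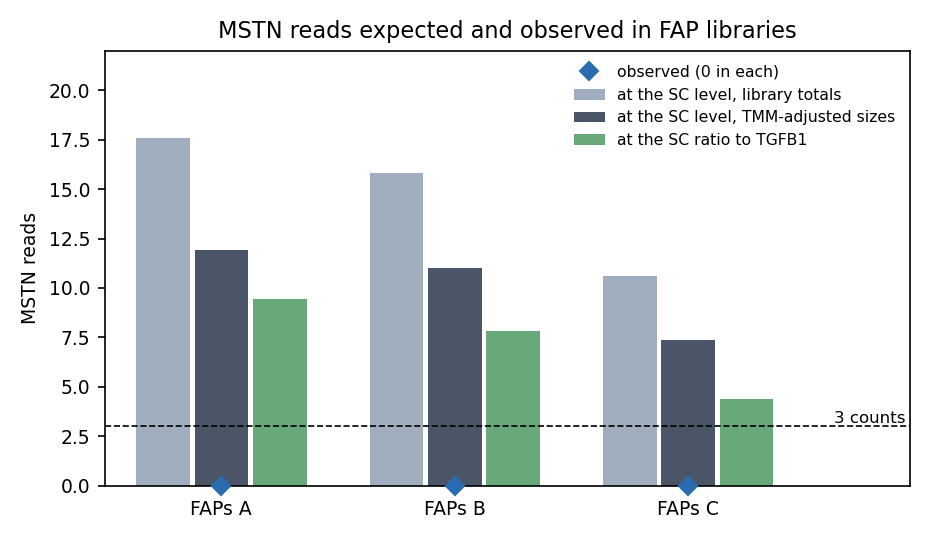
Number of MSTN reads in each FAP library (blue diamonds, 0 in each) beside the number expected at the mean SC level on library totals, at the mean SC level on TMM-adjusted sizes, and at the ratio of MSTN to TGFB1 reads pooled over the SC libraries (bars). The dashed line marks 3 counts, and the lowest bar, at 4.38 reads in FAPs C, is above it.

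Tested across all 14039 genes that passed the filter on low counts, MSTN was called lower in FAPs by the quasi-likelihood test of edgeR with Benjamini-Hochberg adjustment (adjusted p = 0.000102). A call needed both a log2 fold change (log2-FC, FAPs minus SCs) beyond 1 in either direction and a false discovery rate below 0.05. Of the tested genes, 13.6% were called higher in SCs under the same rule. The fitted log2-FC of MSTN was -6.51, and since it is set against 0 counts it depends on the small prior count that edgeR adds: it was -2.73 when that prior count was raised to 2. The size of the change is therefore better read from the floors and intervals above, which do not fix it. Over the alternative settings that could test the gene, the adjusted p reached at most 0.000655. The exact two-sided permutation test over the 6 libraries gave p = 0.1, the smallest that 3 libraries against 3 allow.

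MSTN passed the filter only through its SC libraries. The filter asked for 0.343 CPM on library totals in any 3 libraries, which 3 SC libraries and 0 FAP libraries reached. With 0 counts in each FAP library, MSTN could enter only by being higher in SCs. Its call among the filtered genes is therefore not independent of the filter. Among the tested genes, 92 (0.655%) had 0 counts in each FAP library, and MSTN had the fewest SC reads of these on the TMM-adjusted scale, against a median of 1.36 CPM. These figures describe the reads that the test could use and are not corrected for gene length. With no filter, over 19162 genes, MSTN was called as well (adjusted p = 1.16e-06 from edgeR). Its log2-FC was then -6.515 with a standard error of 1.1, against -6.512 and 0.916 with the filter. The smaller adjusted p thus does not mark a larger or more precise difference.

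TGFB1 was counted in both cell types and was higher in SCs. The count was 446 in FAPs A, 371 in FAPs B and 207 in FAPs C, and it was 727 in SCs A, 401 in SCs B and 622 in SCs C. Since the libraries differ in depth, the counts of the cell types overlap, while the scaled levels do not.

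On TMM-adjusted sizes, the TGFB1 level was 14.4 CPM in FAPs A, 13.1 CPM in FAPs B and 10.8 CPM in FAPs C, with a mean of 12.8 ± 1.81 CPM (SD, n = 3). In SCs it was 21.6 CPM in A, 16.9 CPM in B and 17.1 CPM in C, with a mean of 18.5 ± 2.66 CPM (SD, n = 3). Every SC library exceeded every FAP library, although the lowest SC level was only 1.17 times the highest FAP level, and the intervals of these libraries, 15.3 to 18.6 CPM and 13.1 to 15.8 CPM, touched. SCs A stood above the other SC libraries, and FAPs C was the lowest of all. The share of tested genes free of overlap with SCs higher was 38% on this scale, as given above.

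The difference in TGFB1 was larger than the spread between replicates and smaller than 2-fold. The mean SC level was 1.45 times that of FAPs, and edgeR gave a log2-FC of -0.53 with a standard error of 0.126 and an adjusted p of 0.00251. Since this log2-FC was within the cutoff of 1, TGFB1 was not called. The 95% interval of the log2-FC ran from -0.80 to -0.25 and did not reach the cutoff either. By the adjusted p alone, without the fold cutoff, 36.5% of tested genes were higher in SCs. The exact two-sided permutation test gave p = 0.1, the smallest possible. In bulk RNA, a lower level in every cell and a smaller share of cells with the transcript cannot be told apart.

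The call on TGFB1 turned on how the libraries were scaled. On library totals, the level was 11.8 CPM in FAPs A, 10.9 CPM in FAPs B and 9.10 CPM in FAPs C, and 25.8 CPM in SCs A, 20.4 CPM in SCs B and 20.6 CPM in SCs C. The groups lay farther apart on this scale, and the lowest SC level was 1.73 times the highest FAP level, where 67.2% of tested genes were free of overlap with SCs higher. The means were 10.6 ± 1.37 CPM and 22.3 ± 3.04 CPM (SD, n = 3), and edgeR's log2-FC of -1.06, with a standard error of 0.121 and an adjusted p of 2.96e-06, was past the cutoff. The share of genes called higher in SCs rose to 27% under the same scaling. The call on library totals rested on single libraries, as the log2-FC was -0.97 without FAPs C and -0.94 without SCs A.

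This scaling moved all genes together. Over the tested genes the median log2-FC was -0.04 with TMM factors and -0.57 with library totals. Relative to that median, the log2-FC of TGFB1 was -0.49 under either scaling, and that of MSTN was -6.48 and -6.21. The 10 most counted genes of a library took between 22.5% and 24.0% of the reads in FAPs and between 7.73% and 8.02% in SCs, and the mean TMM factor was 0.831 in FAPs and 1.204 in SCs. With library totals taken without the most counted genes, the median log2-FC was -0.294, so that part of the shift remained. On either scale 24.4% of tested genes had a lower log2-FC than TGFB1, which places the gene in the SC-higher part of the range but far from its end.

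**Figure D3:**
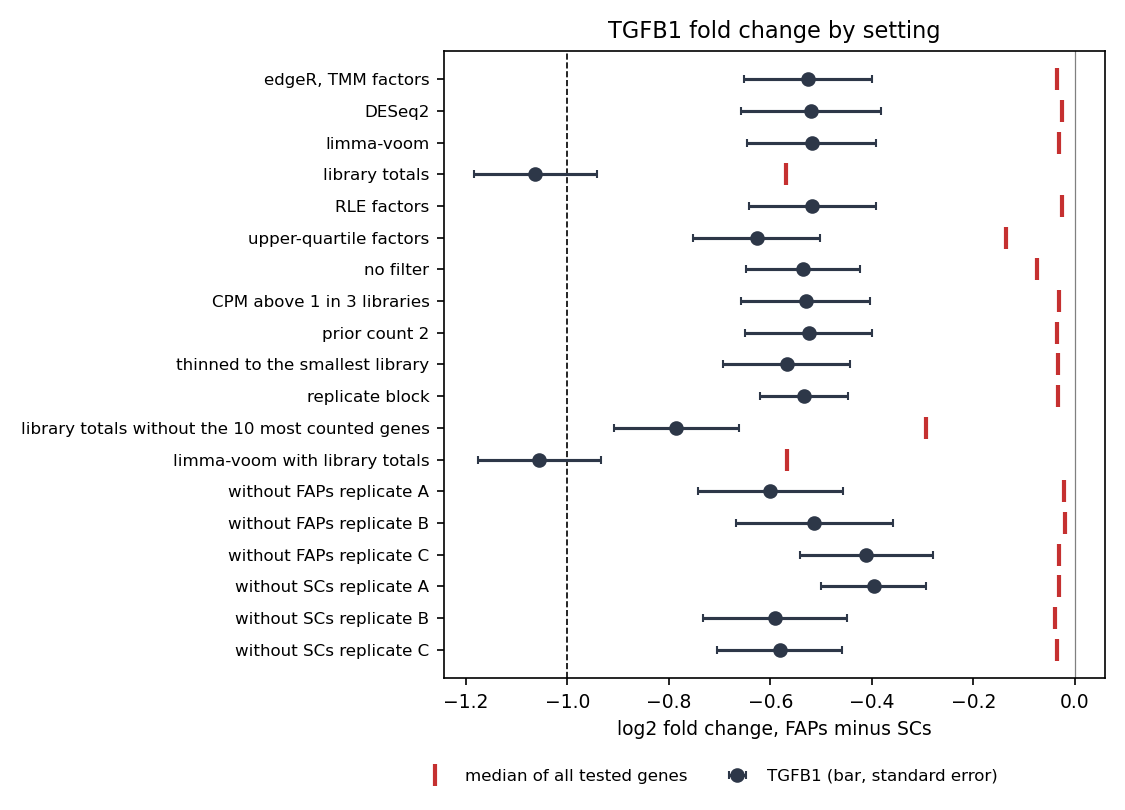
Log2-FC of TGFB1, FAPs minus SCs, under each setting (points, with bars for the standard error) and the median over all tested genes under the same setting (red marks). The dashed line is the 2-fold cutoff. TGFB1 is below 0 under every setting drawn and passes the cutoff under the pair of settings with library totals, at -1.06 with edgeR and -1.05 with limma-voom, where the median of all genes has moved to -0.57.

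TGFB1 varied among libraries of one cell type by more than the counting error of independent reads. As said above, these reads are not independent molecules, so the p-values of this test may be too small. The chi-square test of its counts against TMM-adjusted library sizes gave 11.7 in FAPs (2 degrees of freedom, p = 0.00295) and 24.2 in SCs (p = 5.47e-06). Between replicates the coefficient of variation was 14.2% for FAPs and 14.3% for SCs, while counting error alone gives 5.41% and 4.14%. In both cell types library A was the highest, by 0.185 on the log2 scale over the mean of FAPs and by 0.23 over that of SCs. Library C was the lowest in FAPs, while B and C were alike in SCs within their counting intervals.

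A ratio taken within a library does not depend on the scaling, and was used to compare how the genes of the pair differed. For every 100 TGFB1 reads there were 1.65 MSTN reads in SCs A, 2 in SCs B and 2.73 in SCs C, and 0 in each FAP library. The floor of 3 counts allowed up to 0.673 in FAPs A, 0.809 in FAPs B and 1.45 in FAPs C, and each of these was below the lowest SC ratio. With 0.5 counts added to each gene, the mean log2 ratio of MSTN to TGFB1 was -9.35 in FAPs and -5.53 in SCs (p = 0.1 in the exact two-sided permutation test, its smallest value here). As MSTN had 0 reads in FAPs, the FAP mean is set by the added count and the number of TGFB1 reads. The size of this difference in log2 ratio is thus not a measured one. At the pooled SC ratio, 9.43 MSTN reads would be expected in FAPs A, 7.84 in FAPs B and 4.38 in FAPs C. In the counted reads, MSTN thus fell more than TGFB1 in these libraries, whichever scaling is used. Beyond the counted reads, this rests on the floor of 3 counts. The exact Poisson interval of 0 counts reaches 3.69 counts. At that limit the ratio allowed in FAPs C lies above the 1.65 of SCs A, while those of FAPs A and FAPs B stay below it. As said above, MSTN could pass the filter only by being higher in SCs, so the direction is not independent of the filter. The ratio says nothing of which transcript is the more abundant, because the reads were not divided by gene length.

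**Figure D4:**
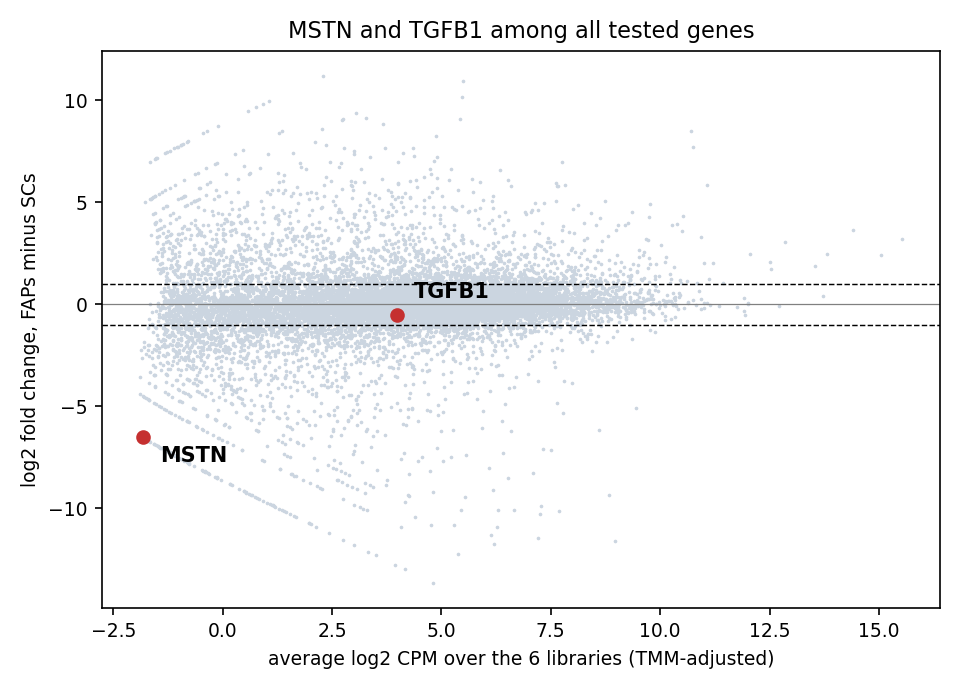
Log2-FC, FAPs minus SCs, against average log2 CPM over the 6 libraries for all 14039 tested genes (grey) with MSTN and TGFB1 in red, on TMM-adjusted library sizes. Dashed lines mark the 2-fold cutoff. MSTN, at a log2-FC of -6.51, lies at the low end of the level axis in a band of genes with 0 counts in FAPs, and TGFB1, at -0.53, lies among the bulk of the genes.

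The genes whose pattern over the 6 libraries was most like that of each member were found by the root mean square difference of log2 CPM, with every gene centred on its own mean. For TGFB1 the closest was ENSBTAG00000010318, which differed by 0.0228 on the log2 scale and had a mean of 6.70 CPM in FAPs and 9.75 CPM in SCs. As many as 2746 tested genes came within 0.25 of the TGFB1 pattern. For MSTN the closest was ENSBTAG00000018464, at a difference of 0.0970, with 0.143 CPM in FAPs and 1.32 CPM in SCs, and 100 genes came within 0.25. The next closest, at 0.102, had 0 CPM in FAPs and 0.416 CPM in SCs. Since MSTN had 0 counts in FAPs, that side of its pattern is set by the prior count of 2 added before logs were taken, and the likeness does not extend to the size of the change, as the fitted log2-FC of ENSBTAG00000018464 was -3.19. These identifiers are not paired with names in the tables used here.

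In the RefSeq gene table of assembly ARS-UCD2.0, another version of the bovine genome than the one used for counting, no other gene overlaps MSTN. TGFB1 overlaps with 2 protein-coding genes there, CCDC97 and HNRNPUL1. How the counting treated reads on overlapping genes and whether it used the strand are not stated, so that reads of TGFB1 and of these neighbours may not be told apart, and their part in the TGFB1 difference was not tested. Of the 46 ligands, processing factors, inhibitors, receptors, SMAD proteins and targets of the pathway that had been listed with the pair included, and of 24 markers of FAPs, SCs and other cells, none but MSTN and TGFB1 could be tied to an identifier, because 0 of the 27607 identifiers occur in that table. The cell type labels were thus not checked against marker genes here.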

How the data were processed

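The 6 RNA sequencing libraries (FAPs A to C and SCs A to C) were grouped by their sample labels. The authors prepared stranded mRNA libraries, sequenced single-end reads of 75 bp, aligned them with STAR 2.7 to bosTau9 and assigned them to Ensembl genes with featureCounts. What they deposited is a table of raw read counts, unnormalised, with 19666738 to 37791193 counts per library and 0 further sample columns. Low counts were removed by filterByExpr (minimum count 10), TMM factors were applied, and edgeR 4.0.16 (R 4.3.3) was run with its quasi-likelihood test and a model of cell type alone. The cutoffs were those of the study's methods, which used limma. Limma 3.58.1 with voom and DESeq2 1.42.0 were run as alternatives, beside other scalings, filters and prior counts, thinning, a replicate block and each library left out. Standard errors were taken from the F statistic. The genes named were the members and, for each, the gene most like it, whereas pathway and marker genes were to be named only if paired with identifiers. The members and lists were chosen with earlier results of these data known. Fits were tested on simulated data. No sequence of the members was printed, as none was in the files used here.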

Additional observations from a re-analysis of the deposited data

How the results depend on the processing

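TGFB1 was lower in FAPs under all 19 alternative settings and MSTN under the 17 that could test it, the filter at 1 CPM and the thinning having removed MSTN. MSTN was called in all 17. TGFB1 was called in 2, with library totals (log2-FC -1.063) and with limma-voom on library totals (-1.055, a setting added after seeing the data). With totals taken without the most counted genes, also added, it was -0.79. A test against a 2-fold change gave TGFB1 an adjusted p of 1 from edgeR. Without single libraries, the log2-FC ran from -0.5998 to -0.3962 for TGFB1 (-0.41 without FAPs C, -0.40 without SCs A) and from -6.634 to -6.258 for MSTN, with calls as before. Their log2 ratio difference of -3.82 ran from -4.144 to -3.591, and was -2.88 with 1 count added. Mean levels moved with library totals to 10.6 CPM (TGFB1, FAPs), 22.28 CPM (TGFB1, SCs) and 0.4656 CPM (MSTN, SCs). Without single libraries they ran from 11.96 to 13.75, from 16.99 to 19.35 and from 0.3464 to 0.4119 CPM, respectively.

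In all, 3943 genes were called, 2035 higher in FAPs and 1908 in SCs. Library totals gave 1286 and 3794, a share of 25.3% higher in FAPs against 51.6%, and limma-voom on totals gave 1290 and 3770. Without single libraries, 4009 to 4086 genes were called, 2073 to 2167 higher in FAPs and 1910 to 1982 in SCs.

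The deviations of same-lettered libraries from their cell type's mean correlated by 0.199 for A, 0.0134 for B and 0.167 for C across genes. The values for A and C were the highest of all combinations of a FAP and an SC library. FAPs B and SCs B each correlated best with another letter, but only by 0.0412 and 0.0225. Whether the letters are pairs is thus not settled, and the main fit did not take them as pairs. With the replicate block, 3942 genes were called, of which 3915 were also called in the main fit. The log2-FC was then -0.53 for TGFB1 and -6.45 for MSTN, with the call of neither gene changed. For TGFB1 the standard error was 0.086, against 0.126 in the main fit, and the adjusted p was 6.95e-06 from edgeR. The MSTN level in SCs rests on 8 to 17 reads per library, which limits its precision. No explanation for any of these changes was tested.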
